A study of Mus musculus with 12 samples.

Results

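The genes Ifit1, Ifit2, Ifit3, Ifitm1, Ifitm2 and Ifitm3 belong to a pair of interferon-induced antiviral families, and all 6 were measured among the 18193 genes read on the arrays. They were chosen by name, and each was taken from 1 probe set, the one with the highest mean over the 12 arrays among those annotated to that symbol and no other. RNA came from cultured cerebellar granule neurons (CGNs), small glutamatergic cells that make up most neurons of the cerebellum. The cultures were made from 7-day-old B10.RIII pups, kept for 3 days and hybridized to Affymetrix Mouse Genome 430 2.0 arrays, 3 arrays in each of 4 groups. The groups were Ifnb+/+ CGNs left untreated, Ifnb-/- CGNs left untreated, and CGNs of each genotype given recombinant interferon-β (rIFN-β) at 100 U/ml for 24 hours before lysis. The labels give the controls as Ifnb+/+, while the study's methods name both Ifnb+/- and Ifnb+/+ littermates as its wild-type mice. Neither source says whether the 3 cultures of a group came from separate litters or from pooled pups, so the p-values measure how far these cultures differ, which may be technical.

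IFIT proteins are cytosolic and built of tetratricopeptide repeats. IFIT1 binds RNA whose cap lacks the methyl group that marks self RNA and keeps it from translation, IFIT3 and IFIT2 assemble with other IFIT proteins, and IFIT2 has been described as a brake on virus spread between neurons. IFITM proteins are small membrane proteins that hinder the fusion of enveloped viruses with cell membranes: IFITM1 lies mostly at the cell surface, and IFITM2 and IFITM3 mostly in endosomes. Type I interferon signals through a cell surface receptor to a transcription factor complex that contains IRF9 and binds the interferon-stimulated response element (ISRE) in the promoters of its target genes.

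The promoters of the members are given first as a description, and whether their motifs bear on the rise with rIFN-β was not tested. RefSeq windows of GRCm38.p6, with 250 bases before and 50 bases from an annotated start, were searched on both strands for the ISRE core (GAAA, any 2 bases, GAAA), for a stricter form of it (GAAAC, any base, GAAA), whose matches are a subset of the core matches, and for the gamma-activated site TTCNNNGAA. The core was present in 1131 of 32851 promoter windows (3.44%), the stricter form in 0.68% and the gamma-activated site in 8.3%. Of the 6 members, counted as genes, 4 had the core in any of their windows. These counts differ in unit, since a gene can have several windows. The lines below run 5′ to 3′ on the strand of the gene, with matches of the core in capitals, and show all 6 members, with a stretch of 100 bases without a match for Ifit2 (from the first of its 2 windows) and Ifitm1.
Ifit1, chr19:34640739-34640888, plus strand: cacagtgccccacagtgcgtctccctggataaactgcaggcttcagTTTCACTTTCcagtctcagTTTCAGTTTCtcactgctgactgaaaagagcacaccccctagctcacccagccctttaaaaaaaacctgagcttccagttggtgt
Ifit2, chr19:34550594-34550693, plus strand: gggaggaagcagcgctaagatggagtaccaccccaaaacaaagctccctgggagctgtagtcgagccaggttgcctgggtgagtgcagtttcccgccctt
Ifit3, chr19:34583349-34583498, plus strand: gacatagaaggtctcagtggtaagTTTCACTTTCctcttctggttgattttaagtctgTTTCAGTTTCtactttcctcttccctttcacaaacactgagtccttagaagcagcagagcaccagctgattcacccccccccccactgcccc
Ifitm3, chr7:141010714-141010743, minus strand: gGAAAAGGAAActtctgaGAAACCGAAAct
Ifitm2, chr7:140955962-140956061, minus strand: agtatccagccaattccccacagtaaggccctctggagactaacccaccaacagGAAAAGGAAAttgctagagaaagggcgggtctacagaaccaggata
Ifitm1, chr7:140967976-140968075, plus strand: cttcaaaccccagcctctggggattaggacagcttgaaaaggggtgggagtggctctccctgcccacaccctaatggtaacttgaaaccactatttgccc
Ifit1 and Ifit3 each had 2 core matches, written as TTTCACTTTC and then TTTCAGTTTC, each a core match on the other strand. They began at −104 and −85 in Ifit1 and at −156 and −122 in Ifit3, counted from the base before the start as −1. Ifitm3 had both of its core matches after the start, from 3 and from 20, and Ifitm2 had 1 at −46. The second match of Ifit1, Ifit3 and Ifitm3 was also a match of the stricter form. The core was found neither in the 2 windows of Ifit2 nor in that of Ifitm1, which says only that these letters are not in these windows. A gamma-activated site began at −241 in 1 window of Ifit2 and at 14 in Ifitm3. A match is a description and not evidence of binding.

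**Figure D1:**
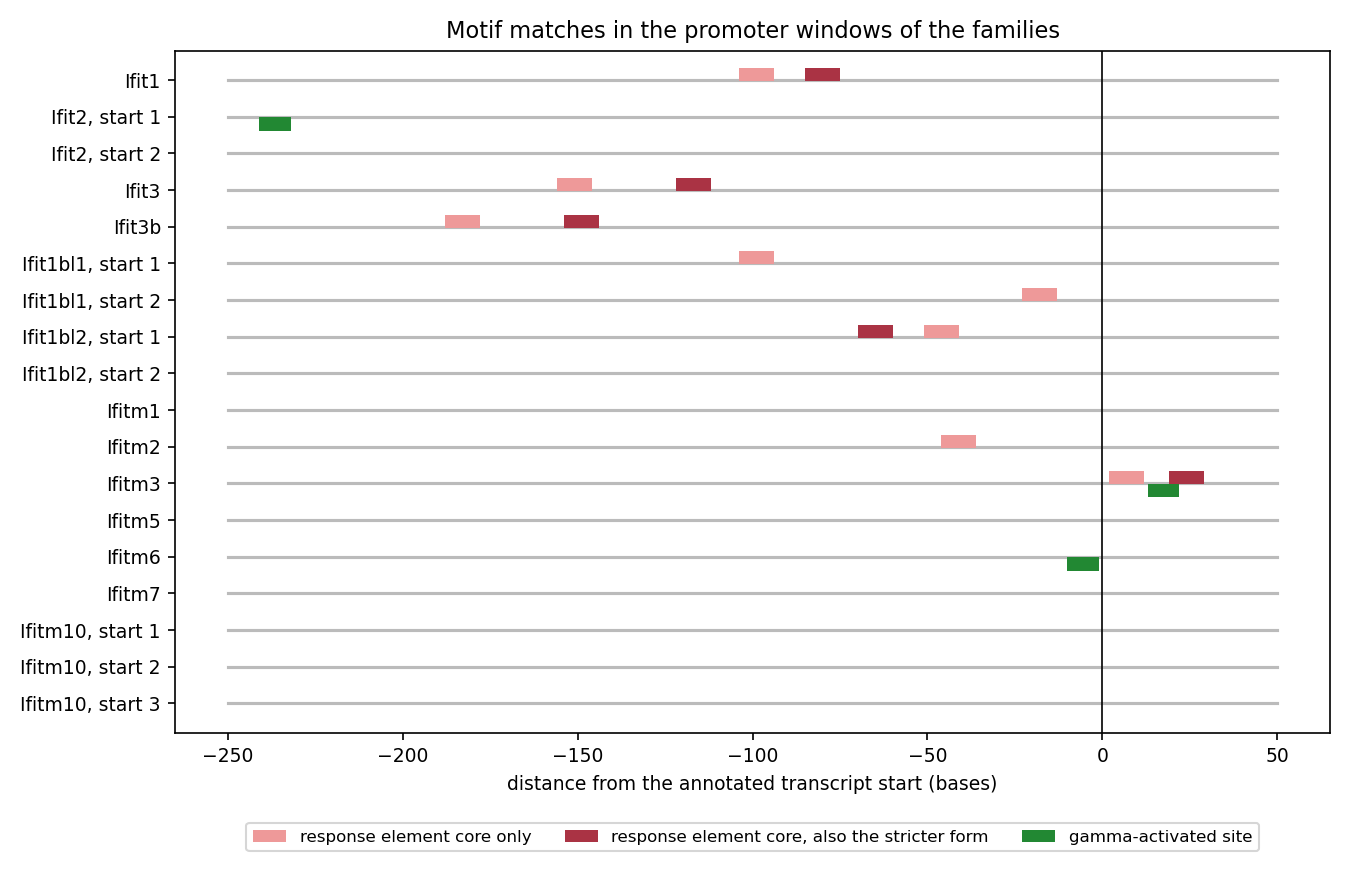
Positions of motif matches in RefSeq promoter windows of the Ifit and Ifitm families, in bases from the annotated start (line at 0); each grey line is a window, pale red boxes are ISRE core matches, dark red boxes also match the stricter form, and green boxes are gamma-activated sites. Ifit1 and Ifit3 have 2 core matches before the start, and Ifitm3 has 2 after it.

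The loci hold near copies of the members. The window of Ifit3 and that of its near-identical copy Ifit3b shared 258 of 274 aligned positions (94.2%). Ifit3b was not among the measured genes, and the value of Ifit3 may hold RNA of both. The window of Ifit1 and that of Ifit1bl2, a paralog read from the opposite strand, share 245 of their 300 bases, so the same core matches lie before both genes.

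Among the arrays, the median over probe sets lay between 4.33 and 4.42 on the log2 scale, and the correlation between arrays of a group ran from 0.971 to 0.998. In untreated Ifnb+/+ CGNs the granule neuron marker Neurod1 read 11.71 ± 0.35 (SD, n = 3). Other markers on the granule neuron list ranged widely. Cbln1 read 10.85 ± 0.22, Rbfox3 10.21 ± 0.04 and Snap25 10.12 ± 0.35, while Gabra6 read 5.46 ± 0.02, Cbln3 4.43 ± 0.19 and Grin2c 2.69 ± 0.14. The astrocyte marker Aqp4 read 9.25 ± 0.23. Of the oligodendrocyte lineage, Mbp read 10.44 ± 0.08 and Mog 2.40 ± 0.18, and of microglia, C1qa read 8.84 ± 0.39 but Tmem119 4.19 ± 0.37 and P2ry12 2.72 ± 0.39. In such bulk RNA, fewer cells of a type and less RNA per cell cannot be told apart. Ifnb1, the deleted gene, had group means of 2.66 to 2.95 in all 4 groups, near the lower end of the scale, and does not check the genotype labels.

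With rIFN-β, 5 of the 6 members rose in Ifnb+/+ CGNs and 4 of 6 rose in Ifnb-/- CGNs at an adjusted p under 0.05 (limma over all 12 arrays, Benjamini-Hochberg adjustment over all genes). In Ifnb+/+ CGNs 1.78% of all genes rose, and in Ifnb-/- CGNs 0.929% did. The 3 treated cultures lay above the 3 untreated ones for 5 members in each genotype, as they did for 6.67% of all genes in Ifnb+/+ and 20.3% in Ifnb-/- CGNs. The Ifit genes rose by 5.26 to 7.00 log2 units and the Ifitm genes by at most 2.18. None of the 6 fell by this test.

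Ifit1, which encodes the sensor of incompletely capped RNA, had log2 values of 4.06, 3.68 and 3.66 in untreated Ifnb+/+ cultures and of 9.85, 11.09 and 11.44 after rIFN-β. In Ifnb-/- cultures it read 2.65, 2.69 and 2.92 untreated and 9.36, 10.26 and 9.53 after rIFN-β. All treated cultures of either genotype lay above all untreated ones, and the untreated Ifnb-/- cultures lay below all untreated Ifnb+/+ cultures. The rise was 7.00 log2 units in Ifnb+/+ CGNs (SE 0.34, adjusted p = 8.17e-07), which is 128-fold, and 6.96 in Ifnb-/- CGNs (SE 0.34, adjusted p = 8.57e-07), which is 125-fold. Ranked by log2 fold change, Ifit1 was number 3 of 18193 genes in Ifnb+/+ CGNs and number 2 in Ifnb-/- CGNs. Untreated, its group mean stood at the 34th percentile of genes in Ifnb+/+ and at the 20.2 percentile in Ifnb-/- CGNs, and with rIFN-β at the 99th and the 96.6 percentile. The untreated Ifnb-/- values lay near the lower end of the scale, where the deposited values give no detection call, so the fold change in this genotype may be understated.

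Ifit2, whose protein pairs with IFIT3, read 3.04, 4.21 and 4.24 in untreated Ifnb+/+ cultures and 9.03, 10.19 and 10.73 with rIFN-β. Values in Ifnb-/- cultures were 3.64, 3.00 and 3.48 untreated and 8.53, 9.05 and 8.32 with rIFN-β. The genotypes overlapped both without and with rIFN-β, and the treated and untreated cultures did not. Ifit2 rose by 6.15 in Ifnb+/+ CGNs (SE 0.41, adjusted p = 5.11e-06, 71.2-fold) and by 5.26 in Ifnb-/- CGNs (adjusted p = 3.29e-05, 38.3-fold).

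Ifit3, the partner that stabilizes other IFIT proteins, read 5.12, 5.16 and 4.85 in untreated Ifnb+/+ cultures and 10.04, 11.00 and 11.78 with rIFN-β. The Ifnb-/- cultures read 3.96, 4.30 and 4.52 untreated and 9.68, 10.48 and 9.56 with rIFN-β. As with Ifit1, the untreated Ifnb-/- cultures lay below the untreated Ifnb+/+ cultures, and the treated groups overlapped. Ifit3 rose by 5.89 in Ifnb+/+ CGNs (SE 0.36, adjusted p = 2.35e-06, 59.4-fold) and by 5.65 in Ifnb-/- CGNs (adjusted p = 6.26e-06, 50.2-fold).

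**Figure D2:**
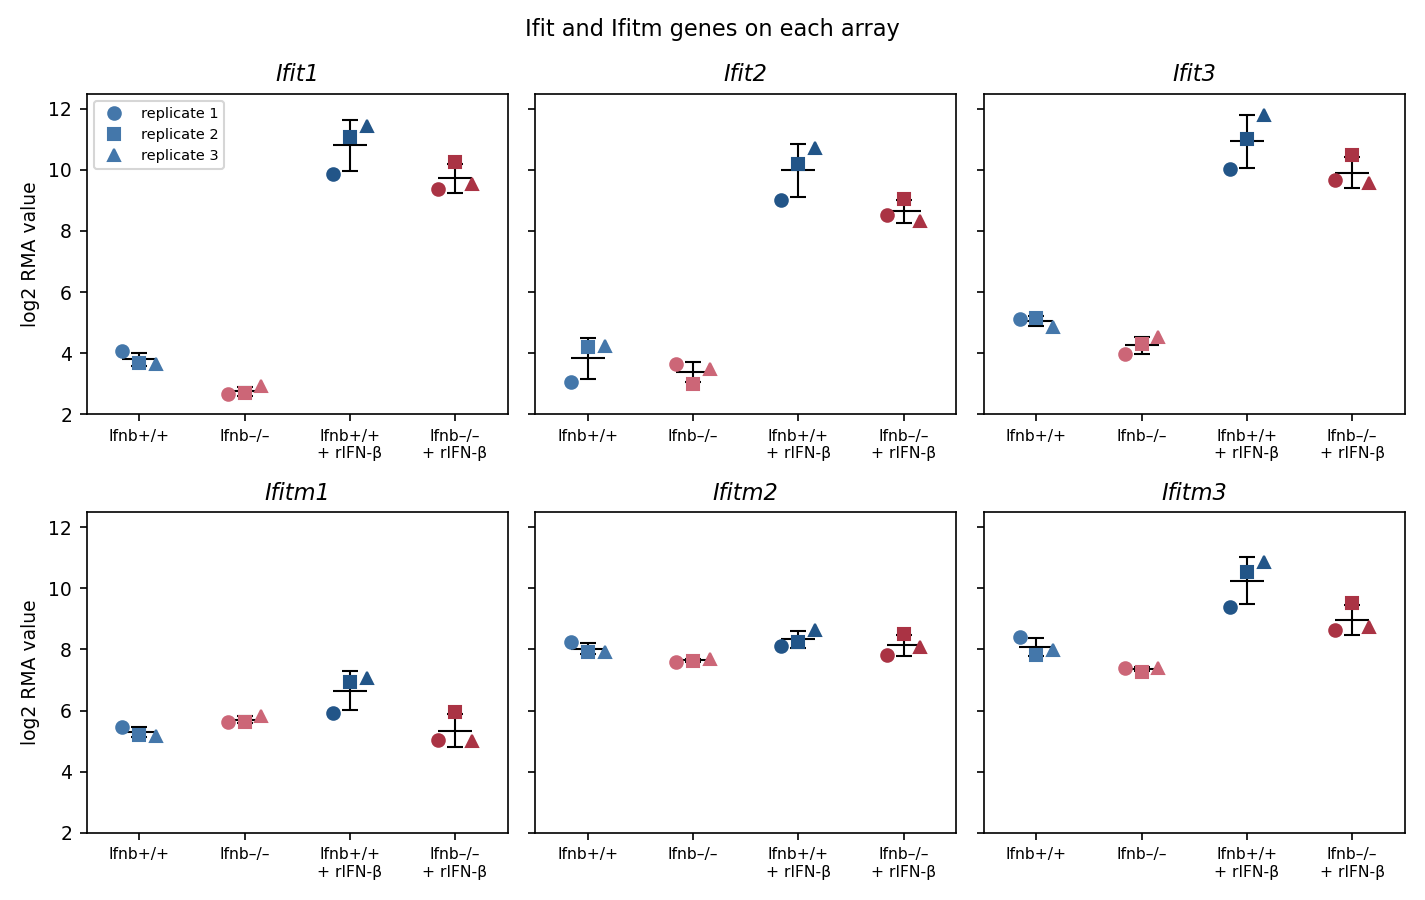
Log2 RMA values of the 6 genes on each of the 12 arrays, by group; symbols are replicates, the horizontal bar is the group mean and the whiskers are 1 SD (n = 3). Ifit1, Ifit2 and Ifit3 go from group means of 2.75 to 5.05 without rIFN-β to 8.64 to 10.94 with it, and Ifitm1 is higher with rIFN-β in Ifnb+/+ cultures.

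Ifitm3, which encodes the endosomal inhibitor of virus entry, differed from the Ifit genes in that it was well expressed without rIFN-β, above 85.7% of genes in Ifnb+/+ CGNs. It read 8.41, 7.82 and 7.99 in untreated Ifnb+/+ cultures and 9.38, 10.53 and 10.85 with rIFN-β. Its values in Ifnb-/- cultures were 7.40, 7.26 and 7.38 untreated and 8.65, 9.52 and 8.74 with rIFN-β. The groups were ordered untreated Ifnb-/-, untreated Ifnb+/+, treated Ifnb-/- and treated Ifnb+/+, and only the treated groups overlapped as neighbours. It rose 4.53-fold in Ifnb+/+ CGNs (log2 fold change 2.18, SE 0.33, adjusted p = 0.00339) and 3.08-fold in Ifnb-/- CGNs (log2 fold change 1.62, SE 0.33, adjusted p = 0.0314). The second call was kept in 5 of the 12 fits that each left out 1 array, with adjusted p up to 0.139. It was lost without any array of untreated or treated Ifnb-/- CGNs and without untreated Ifnb+/+ replicate 3.

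Ifitm1, whose protein acts mostly at the cell surface, read 5.47, 5.21 and 5.18 in untreated Ifnb+/+ cultures and 5.92, 6.94 and 7.07 with rIFN-β. In Ifnb-/- cultures it read 5.62, 5.64 and 5.82 untreated and 5.03, 5.96 and 5.01 with rIFN-β. Treated cultures thus lay above untreated ones in Ifnb+/+ CGNs, while in Ifnb-/- CGNs 2 of the 3 treated cultures lay below all untreated ones and the third above them. Ifitm1 rose 2.57-fold in Ifnb+/+ CGNs (log2 fold change 1.36, SE 0.30, adjusted p = 0.0286), and its log2 fold change in Ifnb-/- CGNs was −0.36 (SE 0.30, adjusted p = 0.586). With array weights estimated gene by gene in limma the latter was −0.58 and was called (adjusted p = 0.0293), as were 21.8% of all genes. The rise was called in 6 of the 12 fits without 1 array, with adjusted p up to 0.126. It was lost without any untreated Ifnb-/- array, without untreated Ifnb+/+ replicate 3 and without treated Ifnb+/+ replicate 2 or 3. With only the untreated and treated Ifnb+/+ arrays in the fit, Ifit1, Ifit2 and Ifit3 were called, while Ifitm1 (adjusted p = 0.129) and Ifitm3 were not, and 0.72% of all genes were. After Benjamini-Hochberg adjustment the methods' t-test called 0 of the 6 members in Ifnb+/+ CGNs, and 0% of all genes. At an unadjusted p under 0.05 with a 1.5-fold change it called 5 members and 3.41% of all genes.

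Ifitm2, an endosomal relative of Ifitm3, read 8.25, 7.91 and 7.92 in untreated Ifnb+/+ cultures and 8.10, 8.26 and 8.65 with rIFN-β. In Ifnb-/- cultures it read 7.60, 7.61 and 7.70 untreated and 7.83, 8.52 and 8.08 with rIFN-β. Treated and untreated cultures overlapped in Ifnb+/+ CGNs and did not in Ifnb-/- CGNs. The log2 fold changes were 0.31 (95% confidence interval −0.09 to 0.71, adjusted p = 0.373) and 0.50 (0.10 to 0.91, adjusted p = 0.235), and neither passed the test. The interval in Ifnb+/+ CGNs lay below the fold change of every other member.

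**Figure D3:**
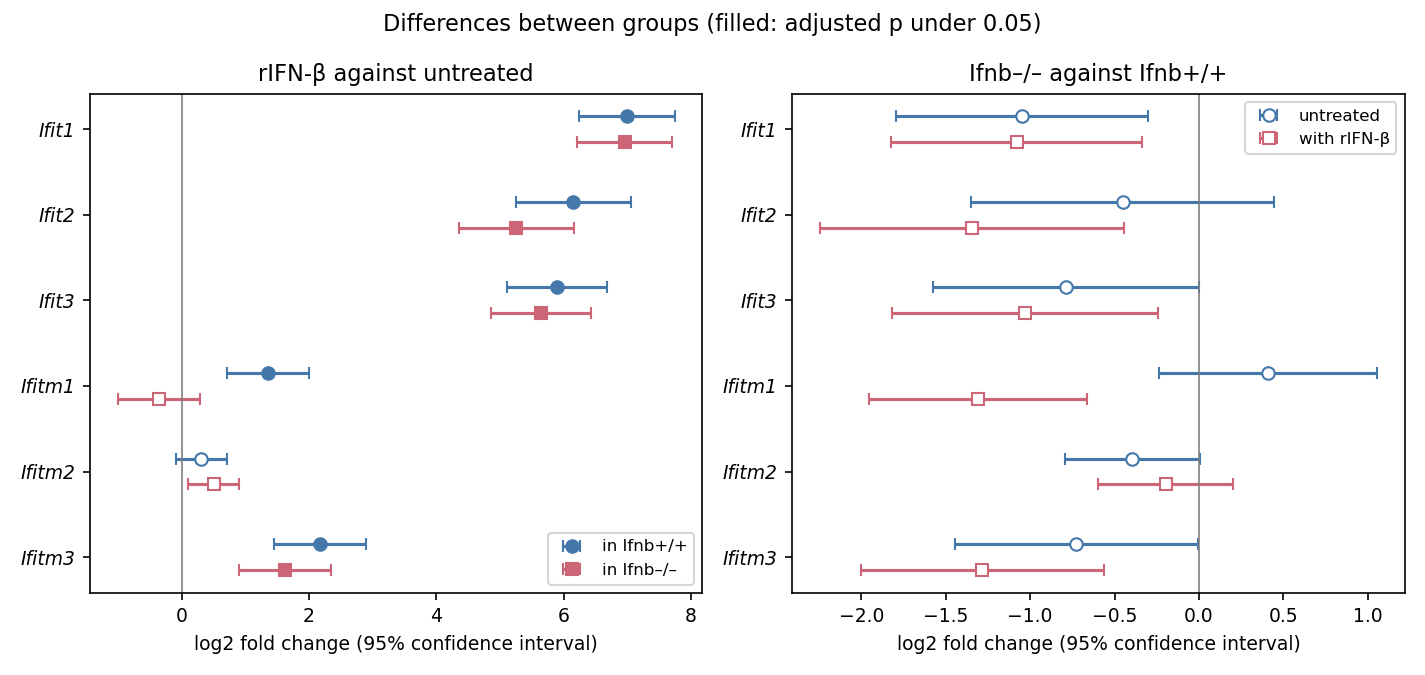
Log2 fold changes from limma with 95% confidence intervals for the 6 genes: rIFN-β against untreated cultures in each genotype (left) and Ifnb-/- against Ifnb+/+ cultures without and with rIFN-β (right). Filled symbols mark an adjusted p under 0.05, which 5 genes reach in Ifnb+/+ and 4 in Ifnb-/- CGNs on the left and none on the right.

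The genotypes were compared without rIFN-β to ask whether the members' level without added cytokine differed when Ifnb was deleted. The log2 fold change of Ifnb-/- against Ifnb+/+ CGNs was −1.05 for Ifit1 (95% confidence interval −1.79 to −0.30), −0.79 for Ifit3 (−1.58 to 0.00), −0.73 for Ifitm3 (−1.45 to −0.01), −0.45 for Ifit2 and −0.39 for Ifitm2, and 0.41 for Ifitm1 (−0.24 to 1.06). The 3 Ifnb-/- cultures lay below all 3 Ifnb+/+ cultures for Ifit1, Ifit3, Ifitm2 and Ifitm3, as they did for 18.1% of all genes. For Ifitm1 they lay above, as for 10.1% of all genes. By limma with Benjamini-Hochberg adjustment 0 of the 6 were called (adjusted p from 0.185 for Ifit1 to 0.526 for Ifit2), where 0.115% of all genes were. At an unadjusted p under 0.05 there were 2, Ifit1 and Ifitm3, where 21.2% of all genes were below that value. By the methods' t-test at p under 0.05 with a 1.5-fold change, Ifit1, Ifit3 and Ifitm3 passed, as did 2.25% of all genes. The count depended on how arrays were weighted. Weights estimated gene by gene in limma gave untreated Ifnb+/+ replicate 3 a weight of 7.24 and the other arrays 0.249 to 2.28. With them all 6 were called, Ifitm1 higher and the others lower in Ifnb-/- CGNs, but so were 43.7% of all genes.

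With rIFN-β, Ifnb-/- CGNs had lower means than Ifnb+/+ CGNs for each of the 6 members, and the groups overlapped for every one of them, where 3.47% of all genes were lower without overlap. The log2 fold changes were −1.08 for Ifit1, −1.35 for Ifit2 (95% confidence interval −2.25 to −0.45), −1.03 for Ifit3, −1.31 for Ifitm1 (−1.95 to −0.66), −0.20 for Ifitm2 and −1.28 for Ifitm3. None was called (limma, Benjamini-Hochberg adjusted p from 0.248 for Ifitm1 to 0.988 for Ifitm2), where 0.0605% of all genes were. An unadjusted p under 0.05 was found for 5, all but Ifitm2, and for 4.94% of all genes. The number called after adjustment depended on the arrays and weights used. Without treated Ifnb+/+ replicate 1, all but Ifitm2 were called lower in Ifnb-/- CGNs, from −1.48 for Ifit3 (limma, adjusted p = 0.0381) to −1.82 for Ifit2 (adjusted p = 0.0355), and 1.12% of all genes were called in either direction. Without treated Ifnb+/+ replicate 3 the differences were smaller, at −0.61 for Ifit3, −0.76 for Ifit1 and −0.97 for Ifit2, and none of the 6 was called. With the same gene-by-gene weights, 4 members and 1.15% of all genes were called.

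The interaction asks whether the rise with rIFN-β itself differed between genotypes. For Ifit1 the rise in Ifnb-/- CGNs differed from that in Ifnb+/+ CGNs by −0.03 log2 units, with a 95% confidence interval of −1.09 to 1.02. This value rests on untreated Ifnb-/- readings near the lower end of the scale. For Ifit3 the difference was −0.24 (−1.36 to 0.87), for Ifit2 −0.89 (−2.17 to 0.38), for Ifitm3 −0.56 (−1.58 to 0.46) and for Ifitm2 0.20 (−0.37 to 0.76). The interval of Ifitm1 was the only one that left out 0, with a difference of −1.72 (SE 0.42, −2.63 to −0.80). Its adjusted p was 0.323 by limma and its unadjusted p was 0.00147, so 0 of 6 members were called, where 0.022% of all genes were. Over all genes, 15.3% had an unadjusted p under 0.05 for the interaction. Without treated Ifnb+/+ replicate 1 the difference for Ifitm1 was −2.08 and was called (limma, adjusted p = 0.0268), as were 0.335% of all genes. With gene-by-gene weights, Ifitm1 and Ifitm3 were called, and so were 22.6% of all genes.

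Within the treated groups the members shared their highest array. In Ifnb+/+ CGNs with rIFN-β, replicate 1 was lowest and replicate 3 highest for 6 of 6 members. In Ifnb-/- CGNs with rIFN-β, replicate 2 was highest for 6 of 6, and the lowest was replicate 1 for 3 members and replicate 3 for 3. The departures were large for Ifit2, at −0.96, 0.21 and 0.75 log2 units from the group mean in replicates 1, 2 and 3 of treated Ifnb+/+ CGNs, and smaller for Ifitm2, at −0.24, −0.08 and 0.31. The mean of 46 other interferon-stimulated genes departed likewise, at −0.92, 0.15 and 0.76 in treated Ifnb+/+ CGNs and −0.22, 0.46 and −0.24 in treated Ifnb-/- CGNs.

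The mean of 9 astrocyte markers was also highest on these arrays, at 7.82, 8.39 and 8.53 in treated Ifnb+/+ CGNs and 7.83, 8.90 and 7.73 in treated Ifnb-/- CGNs. So were the means of oligodendrocyte lineage and meningeal fibroblast markers, by less. They stood 0.25 and 0.12 above the group mean in treated Ifnb+/+ CGNs and 0.28 and 0.07 above it in treated Ifnb-/- CGNs. Aqp4, a water channel of astrocytes, read 9.40, 9.98 and 10.15 in treated Ifnb+/+ CGNs and 9.21, 10.70 and 8.90 in treated Ifnb-/- CGNs. Single markers differed in their order in treated Ifnb+/+ CGNs. Aldh1l1 rose from replicate 1 to 3, at 7.70, 8.37 and 9.24. Gfap, at 8.09, 10.31 and 8.78, and Slc1a2, at 8.48, 8.97 and 8.56, were highest on replicate 2. The mean of 13 granule neuron markers ran the other way, at 8.39, 8.26 and 8.20 and at 8.73, 8.31 and 8.71. In treated Ifnb+/+ CGNs its single markers differed in order too. Tubb3, at 10.12, 9.5 and 9.11, and Cbln3, at 4.22, 3.81 and 3.54, fell from replicate 1 to 3. Snap25, at 10.37, 11.06 and 10.97, was lowest on replicate 1. Neurod1, at 12.18, 11.77 and 12.22, was highest on replicate 3, as were Cbln1 and Pax6. Over the groups, the astrocyte mean ranged from 7.83 to 8.34 in untreated Ifnb+/+ and from 7.86 to 7.89 in untreated Ifnb-/- CGNs. With rIFN-β it ranged from 7.82 to 8.53 in Ifnb+/+ and from 7.73 to 8.90 in Ifnb-/- CGNs. By limma, 0 of its 9 markers was called in any comparison. At most 2 had an unadjusted p under 0.05, both lower with rIFN-β in Ifnb-/- CGNs, where 990 of 18193 genes were. The part of the astrocyte share in the members' values was not tested.

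The mean of 14 microglial markers differed between the untreated genotypes and overlapped between the treated ones. It ranged from 6.81 to 6.89 in untreated Ifnb+/+ CGNs, from 6.31 to 6.46 in untreated Ifnb-/-, from 5.89 to 6.30 in treated Ifnb+/+ and from 6.08 to 6.19 in treated Ifnb-/- CGNs. With rIFN-β, 7 of the 14 fell in Ifnb+/+ CGNs, where 247 of 18193 genes did. Trem2, one of the 7, fell by 1.50 log2 units (limma, adjusted p = 8.01e-05). In Ifnb-/- CGNs 0 of the 14 was called, where 135 of 18193 genes were called lower (limma). At an unadjusted p under 0.05, 5 of the 14 were lower there, as were 990 of 18193 genes. Without rIFN-β, 1 of the 14, Trem2, was called lower in Ifnb-/- CGNs, as were 15 of 18193 genes. For the interaction, 1 of the 14 was called, with a positive difference, as were 4 of 18193 genes. With rIFN-β in Ifnb+/+ CGNs the microglial mean was lower, and the means of all 6 members were higher. With rIFN-β in Ifnb-/- CGNs the microglial mean was lower too, and the means of 5 of the 6 members were higher. In untreated Ifnb-/- CGNs the microglial mean was lower than in untreated Ifnb+/+ CGNs. Ifit1, Ifit3, Ifitm2 and Ifitm3 were also lower without overlap there, as were 18.1% of all genes. Ifit2 overlapped and Ifitm1 was higher, and by limma 0 of the 6 was called. The part of microglia in these values was not tested.

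**Figure D4:**
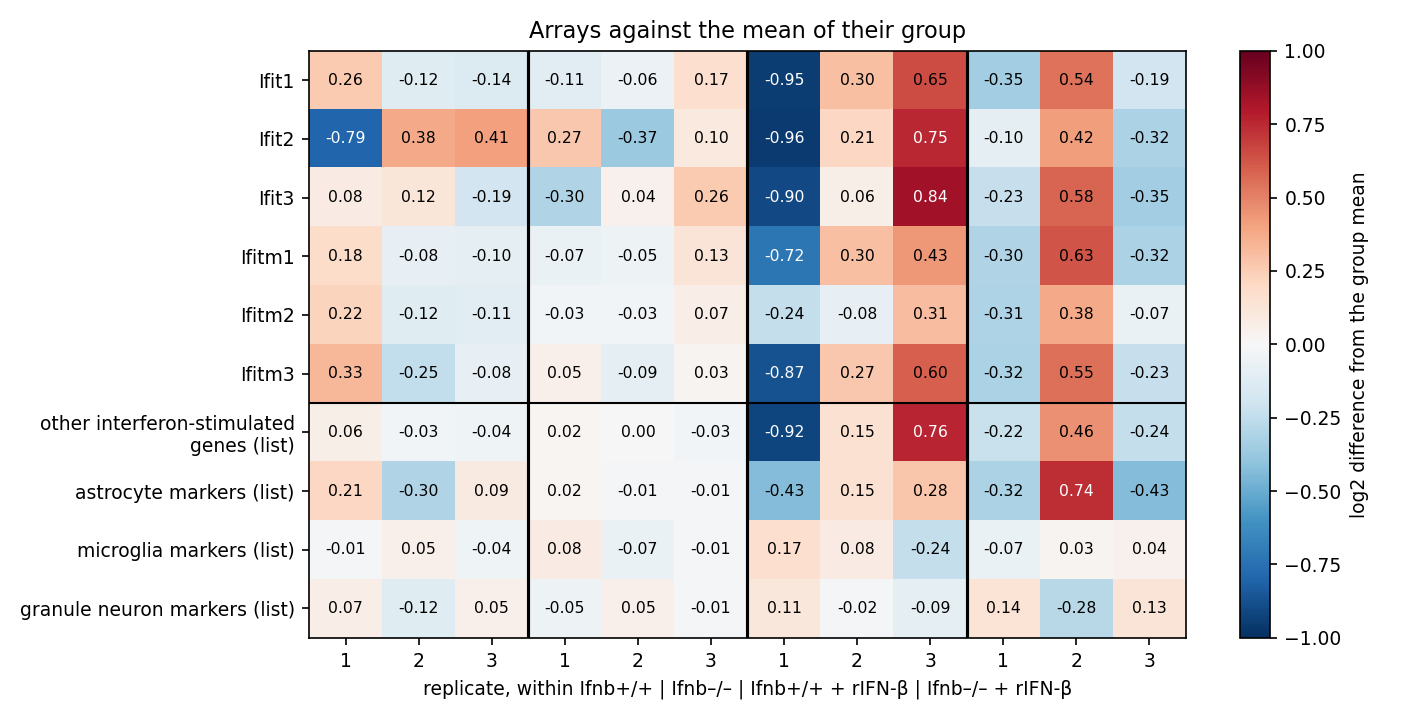
Log2 difference of each array from the mean of its group, for the 6 genes (upper rows) and for the mean of gene lists (lower rows); columns are replicates 1 to 3 of each group, and colour runs from blue (lower) to red (higher). Treated Ifnb+/+ replicate 1 is the lowest of its group in all upper rows, and treated Ifnb-/- replicate 2 is the highest, as it is for the astrocyte markers at 0.74.

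Paralogs of both families were set beside the members. Of 8 listed, 6 were measured. Ifit1bl1, which lies in the Ifit cluster on chromosome 19, rose by 2.46 in Ifnb+/+ CGNs (SE 0.39, adjusted p = 0.00476), from a mean of 3.12 ± 0.25 (SD, n = 3) to 5.59 ± 1.08, and had a log2 fold change of 1.69 in Ifnb-/- CGNs (adjusted p = 0.0569). Ifit1bl2, which shares its promoter window with Ifit1, had log2 fold changes of 0.09 (adjusted p = 0.754) and 0.05 from its brighter probe set, at values from 3.01 to 3.61 on all arrays. Its other probe set had log2 fold changes of 0.46 in Ifnb+/+ (adjusted p = 0.175 over probe sets) and 0.17 in Ifnb-/- CGNs (adjusted p = 0.653). Ifitm5, Ifitm6, Ifitm7 and Ifitm10 had group means between 2.52 and 3.76 in every group, and their log2 fold changes with rIFN-β, from −0.23 to 0.16, did not pass the test in either genotype. Their promoter windows held no ISRE core, while those of Ifit1bl1 and Ifit3b and 1 of the 2 windows of Ifit1bl2 did.

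The genes around the families gave the local background. Of the 10 measured neighbours of the Ifit cluster on chromosome 19, 1 was called with rIFN-β, and of the 10 neighbours of the Ifitm cluster on chromosome 7, 0 were (limma). The exception was Ch25h, which encodes cholesterol 25-hydroxylase, another inhibitor of virus entry. It read 4.36, 4.32 and 4.05 in untreated Ifnb+/+ cultures and 5.11, 4.99 and 5.96 with rIFN-β, and rose by 1.11 in Ifnb+/+ (adjusted p = 0.0118) and by 1.15 in Ifnb-/- CGNs (adjusted p = 0.0173). The median log2 fold change in Ifnb+/+ CGNs was 0.31 over the Ifit neighbours and −0.08 over the Ifitm neighbours, beside −0.03 over all genes.

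**Figure D5:**
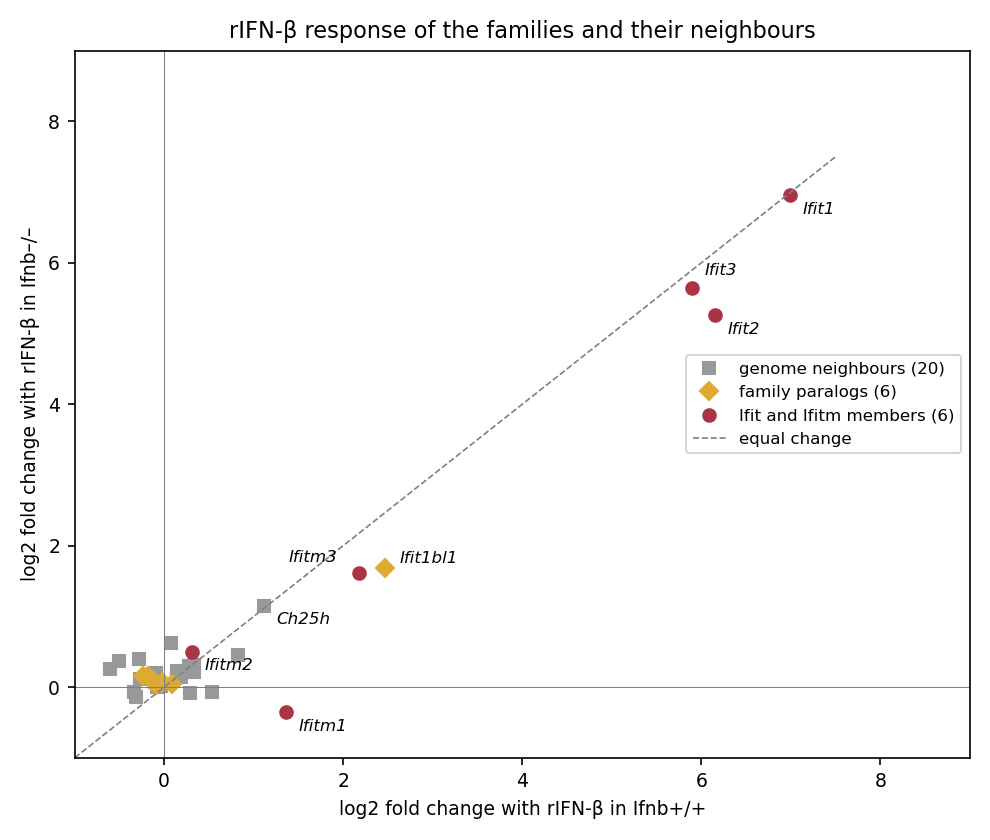
Log2 fold change with rIFN-β in Ifnb+/+ CGNs (horizontal axis) and in Ifnb-/- CGNs (vertical axis) for the 6 members (red circles), 6 paralogs (yellow diamonds) and 20 genome neighbours (grey squares); the dashed line marks equal change. The 3 Ifit members lie above 5 on both axes, and Ifitm1 lies at 1.36 and −0.36.

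Other genes of the response rose with the members. Of 9 measured genes of the receptor and its signal, 5 rose in Ifnb+/+ CGNs and 4 in Ifnb-/- CGNs, with medians of 0.71 and 0.81. Usp18, the feedback inhibitor of the receptor, rose by 6.81 (adjusted p = 8.17e-07) and 6.78 (adjusted p = 8.57e-07), and Irf9, the DNA-binding part of the complex that binds the ISRE, by 3.16 and 3.52 (adjusted p = 1.77e-06 and 1.03e-06). In a list of 46 other genes of the interferon response, 38 were called higher in Ifnb+/+ CGNs and 30 in Ifnb-/- CGNs, with medians of 3.38 and 2.34, where the median over the 6 members was 4.04 and 3.44 and the median over all genes −0.03 and 0.07. Of those with a promoter in the table, 13 of 34 genes (38.24%) held the ISRE core in any of their windows. Between the treated genotypes, 44 of the 46 were lower in Ifnb-/- CGNs at an unadjusted p under 0.05, as were 3.06% of all genes, and 2 were called lower, as were 0.055% of all genes, one of them Dtx3l by 2.22 log2 units (adjusted p = 0.0221). These comparisons share arrays and are not independent of each other.

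Genes that act on the same molecules as the members were also listed. Of 15 RNA cap enzymes and subunits of eIF3, the initiation factor that IFIT proteins can bind, 1 rose in Ifnb+/+ CGNs and 0 in Ifnb-/- CGNs (limma). With an unadjusted p under 0.05, 3 of them were higher in Ifnb-/- CGNs and 1 was lower, while 1 was higher and 3 were lower in Ifnb+/+ CGNs. Of all 18193 genes, 1667 were higher and 990 lower in Ifnb-/- CGNs at that threshold, and 1602 higher and 2017 lower in Ifnb+/+ CGNs. The called gene was Cmtr1, which encodes the methyltransferase that places the cap methyl group missing from the RNA that IFIT1 binds. Cmtr1 read 6.84, 6.36 and 6.61 in untreated Ifnb+/+ cultures and 7.10, 7.30 and 7.88 with rIFN-β, a rise of 0.83 (SE 0.18, adjusted p = 0.0298), and had a log2 fold change of 0.43 in Ifnb-/- CGNs (adjusted p = 0.3). Of 6 genes that modify or bind IFITM proteins, Ube2l6, an E2 enzyme of ISG15 conjugation, rose by 2.49 in Ifnb+/+ CGNs (adjusted p = 0.00314). Its log2 fold change in Ifnb-/- CGNs was 0.87 (adjusted p = 0.308), where 0 of the 6 were called (limma, with unadjusted p under 0.05 for 2, 1 in each direction).

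The genes most like each member were found by Pearson correlation of log2 values over the 12 arrays, which reflects mainly the step between untreated and treated cultures. Ifit1 was most like Ifit3 (r = 0.998), Rsad2 (0.996) and Cxcl10 (0.995), and Ifit3 most like Ifit1, Irgm1 (0.997) and Iigp1 (0.996). Ifit2 was most like Cmpk2 (0.996), a nucleotide kinase gene next to Rsad2 in the genome. Ifitm3 was most like Daxx (0.994), Tap2 (0.992) and Parp12 (0.991), and its correlation with the 3 Ifit members was 0.909 to 0.918. Ifitm2 was most like Parva (0.969), Tmem176a (0.967) and 2610507B11Rik (0.961).

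Ifitm1 had other companions. Its correlation with the Ifit members was 0.493 to 0.534, and it was most like Lcn2 (r = 0.942), Ptx3 (0.929) and Cp (0.925), which encode the secreted proteins lipocalin 2, pentraxin 3 and ceruloplasmin. Lcn2 read 4.49, 4.29 and 4.46 in untreated Ifnb+/+ cultures and 4.82, 7.33 and 8.79 with rIFN-β. Ifnb-/- cultures read 4.48, 4.20 and 4.15 untreated and 3.02, 5.70 and 3.11 with rIFN-β. Replicate 2 of the treated Ifnb-/- group again stood above the other two, as it did for Ifitm1. With rIFN-β in Ifnb+/+ CGNs, Ptx3 rose by 1.33 (limma, adjusted p = 0.0498), and Lcn2 and Cp had log2 fold changes of 2.57 (adjusted p = 0.128) and 1.27 (adjusted p = 0.169).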

How the data were processed

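Total RNA of 12 cultures was hybridized to 1 array each. Log2 values of 45037 probe sets were deposited by the authors, after quantile normalization and RMA in Arraystar 3, and were used without further scaling. Array annotation named 1 gene for 34945 probe sets, several for 932 and none for 9160. A gene was read from its brightest single-gene probe set, which favours probe sets with high background. Only 3 arrays per group limit the precision. Groups were taken from sample titles. Group means were compared with limma 3.58.1 (R 4.3.3) over all arrays with 8 residual degrees of freedom, at a Benjamini-Hochberg adjusted p under 0.05. Likeness is Pearson's r, and promoters were searched with Python 3.11.15. Genes named were the members, paralogs, the 5 nearest measured neighbours per side, the 3 most like genes and the list members with the smallest adjusted p. Astrocyte, microglial and other marker values that are named beyond that rule were chosen after they were seen. Members and gene lists were chosen with earlier results of these data known. The procedure was tested on simulated data, in which 200 genes were changed. Replicate numbers were not taken as pairs. The correlations of same-numbered arrays ran from −0.501 to 0.432 between genotypes. Between untreated and treated arrays of a genotype all were positive, from 0.0505 to 0.298, and whether those cultures were paired is not known. Alternatives covered the probe set per gene, a filter, centring, another normalization, weights, the variance, the samples fitted, a replicate block, the methods' t-test and each array left out.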

Additional observations from a re-analysis of the deposited data

How the results depend on the processing

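Members called numbered 5 with rIFN-β in Ifnb+/+ CGNs, 4 in Ifnb-/- CGNs and 0 between genotypes and for the interaction. These counts were the same with another rule for probe sets, a filter on dim genes, another normalization or centring and a trended variance. Each member had only 1 single-gene probe set, so another rule could alter its test but not its fold change. Centring and the other normalization were mild, and shifted the median change across genes by at most 0.024 log2 units in any comparison. With the replicate number as a block, a pairing the labels do not state, the counts were 5, 4, 0, 0 and 0. Only the compared groups in the fit gave 3 in Ifnb+/+ CGNs (Ifit1, Ifit2 and Ifit3). The methods' t-test gave 0 in Ifnb+/+ and 3 in Ifnb-/- CGNs (without Ifitm3) after Benjamini-Hochberg adjustment, and 3 between untreated genotypes at its own threshold. These settings have no value for the interaction, which needs all 4 groups. The default array weights did not converge. Weights estimated gene by gene, chosen after seeing the data, gave 6 between untreated genotypes, with Ifitm1 higher and the others lower in Ifnb-/- CGNs. They gave 4 between treated genotypes and 2 for the interaction, where that of Ifitm2 turned to −0.058. With rIFN-β in Ifnb-/- CGNs they gave 5, where Ifitm1 was called lower. Leaving out each array gave 4 to 5 in Ifnb+/+, 3 to 4 in Ifnb-/- CGNs, 0 between untreated genotypes, 0 to 5 between treated genotypes and 0 to 1 for the interaction. The interaction of Ifit1, near 0, then ran from −0.51 to 0.29, that of Ifit3 from −0.69 to 0.18, that of Ifit2 from −1.37 to −0.50 and that of Ifitm3 from −0.99 to −0.26. Among uncalled values, Ifit2 between untreated genotypes ran from −0.85 to −0.25 and Ifitm1 with rIFN-β in Ifnb-/- CGNs from −0.67 to −0.20. The causes of these differences were not tested. Values near the lower end of the scale, as for Ifit1 and Ifit2 untreated, may understate a difference.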
